A study of Solanum lycopersicum with 12 samples.

Results

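Phenylalanine ammonia-lyase (PAL) genes were followed in leaves of tomato (Solanum lycopersicum L.) cultivar Micro Tom after ultrasound, drought or both. The genes were taken from a list of 9 loci, matched by locus name, and 7 of them had a row in the count table of 34075 genes. The other 2 loci, Solyc03g036470 and Solyc03g036480, were not analysed here. All 7 genes passed the filter on low counts that left 22157 genes for testing, and every one of them was detected in every library. The lowest PAL count in a library was 56, for Solyc03g042560 in US + D replicate 2, i.e., 1.64 CPM (counts scaled to a common library size) with an exact Poisson interval of 1.24 to 2.13 CPM (95%, counting error only).

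Plants grown singly in peat pellets were 3 weeks old when they were treated, and leaf RNA was taken 48 h after the stimuli. The ultrasound group (US) received 30 kHz at 120 W for 5 min through air from a distance of 6 cm. The drought group (D) was irrigated with 10 ml of 20% polyethylene glycol. The combined group (US + D) was given that solution directly after the same ultrasound treatment, and the control group (C) received neither stimulus. Each group had 3 libraries, described as biological replicates, and p-values measure the spread between these libraries. All 4 groups were of the same dwarf cultivar. As RNA was taken from leaves in bulk, fewer cells of a type and less RNA per cell cannot be told apart.

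PAL removes ammonia from phenylalanine to give cinnamic acid. This is the entry step of the phenylpropanoid pathway, which supplies lignin, chlorogenic acid, flavonoids and anthocyanins, and in many plants also contributes to salicylic acid. PAL genes form families with closely related copies, and their transcripts are known to respond to wounding, infection, light and water shortage.

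The US libraries held 36766633 to 42940503 counts, the D libraries 37905900 to 41748213, the US + D libraries 33640280 to 87164190 and the C libraries 44837873 to 106829565. The 3 deepest libraries were C replicates 2 and 3 and US + D replicate 3. The labelled tissue was checked against its markers, and 5 of 5 leaf mesophyll genes (Rubisco small subunits, Rubisco activase and chlorophyll-binding proteins) were abundant, with a sum between 11619 and 39118 CPM. Genes of the shoot apex summed to at most 2.40 CPM, those of flowers to at most 8.83 CPM, and those of glandular trichomes to at most 23.8 CPM, with 1 of the 6 measured trichome genes at 0 in all libraries.

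On the SL4.0 genome, 4 of the 7 genes lie next to each other on chromosome 9 within 25725 bases. They are Solyc09g007890 (1433147 to 1435469, minus strand), Solyc09g007900 (1438652 to 1441865, minus strand), Solyc09g007910 (1448725 to 1451121, plus strand) and Solyc09g007920 (1455211 to 1458871, plus strand), and no other gene of the table lies wholly between the first and the last. The gaps between neighbours were 3182, 6859 and 4089 bases. The remaining 3 stand alone, i.e., Solyc03g042560 on chromosome 3 (6310075 to 6312855), Solyc05g056170 on chromosome 5 (64942498 to 64946271) and Solyc10g086180 on chromosome 10 (64248745 to 64252443), each on the plus strand. Solyc09g007920 shares 947 bases with Solyc09g007930 on the opposite strand, for which no read was counted in any library. The strand setting of the counting, and the handling of reads that fit several places or overlapping genes, are not given in the sources used here. Counts of Solyc09g007920, and of closely similar copies in general, are therefore uncertain to an extent that was not tested.

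Among these genes, Solyc09g007900 had by far the highest transcript level. Per kilobase of annotated gene interval, introns included, it averaged 187 ± 59.4 CPM (SD over the 12 libraries), and it was above the next gene in 12 of 12 libraries. Solyc09g007920 followed with 77.0 ± 24.0, Solyc09g007910 with 69.0 ± 23.8 and Solyc10g086180 with 57.2 ± 36.9 CPM per kilobase. These 3 did not separate beyond their spread, since Solyc09g007920 was above Solyc09g007910 in 8 of 12 libraries and Solyc09g007910 above Solyc10g086180 in 7 of 12. Solyc05g056170 (12.7 ± 6.21), Solyc09g007890 (8.70 ± 4.78) and Solyc03g042560 (8.67 ± 8.77) formed a lower tier, with Solyc10g086180 above Solyc05g056170 in 12 of 12 libraries and overlapping neighbours below that. Solyc09g007900 and Solyc09g007920 together held between 53.3% and 76.8% of the summed CPM of the 7 genes (median 64.9%).

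**Figure D1:**
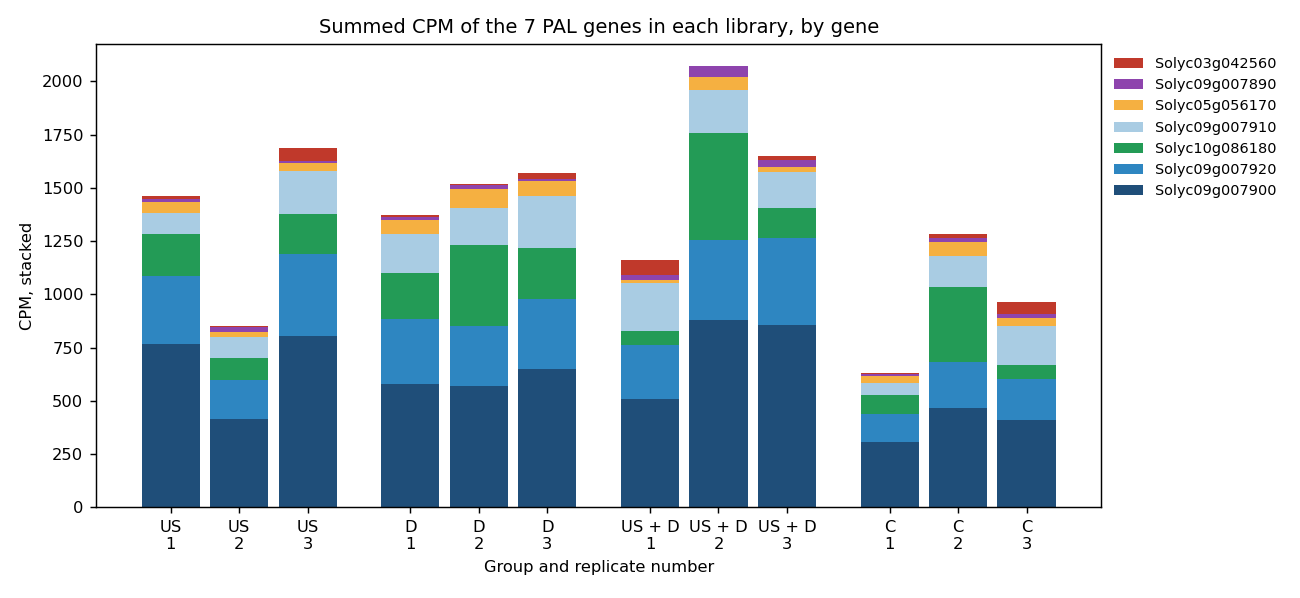
Stacked CPM of the 7 PAL genes (vertical axis) in each of the 12 libraries (horizontal axis, by group and replicate number), with 1 colour per gene. Solyc09g007900 and Solyc09g007920 make up 53.3% to 76.8% of each bar, and the D bars are the most even, between 1373 and 1569.5 CPM.

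Summed over the 7 genes, PAL transcripts amounted to 1373, 1519.8 and 1569.5 CPM in D, against 631, 1286 and 963 CPM in C, in the order of the replicate numbers throughout. Every D library was thus above every C library. The sum was 1462, 851 and 1687 CPM in US and 1161, 2072 and 1648 CPM in US + D. Both of these groups overlapped with C. The coefficient of variation of the sum was 6.88% in D, 32.4% in US, 28.0% in US + D and 34.1% in C.

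The most abundant genes were likewise higher in every D library than in any C library. Solyc09g007900 had 766, 413 and 806 CPM in US, 581, 570.5 and 652 CPM in D and 508, 879 and 856 CPM in US + D, against 305, 466 and 409.5 CPM in C. All libraries of D and of US + D were above all those of C, while US replicate 2 lay within the range of C. Solyc09g007920 had 321, 184 and 385 CPM in US, 302, 282 and 327 CPM in D and 252, 377 and 410.0 CPM in US + D, against 131, 218 and 192 CPM in C. Again D and US + D did not overlap with C, and US did through its replicate 2.

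The remaining genes of the chromosome 9 group differed from this. Solyc09g007910 had 96.5, 96.8 and 203 CPM in US, 183, 176 and 247 CPM in D and 228, 198 and 171 CPM in US + D, against 54.5, 149 and 182 CPM in C. No group was free of overlap with C for this gene, and C replicate 1 was the lowest library of all. Solyc09g007890 had 11.4, 22.1 and 9.83 CPM in US, 14.5, 21.1 and 10.7 CPM in D and 22.6, 47.6 and 34.4 CPM in US + D, against 11.2, 19.1 and 18.0 CPM in C. The US + D libraries were the 3 highest of the 12, although US replicate 2 at 22.1 CPM came close to the lowest of them at 22.6 CPM. The other groups overlapped with each other.

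The genes outside the group on chromosome 9 varied more between replicates. Solyc05g056170 had 52.9, 24.5 and 36.2 CPM in US, 66.7, 89.3 and 68.8 CPM in D and 14.5, 65.6 and 21.7 CPM in US + D, against 32.8, 65.9 and 35.0 CPM in C. Its D libraries were the 3 highest of the 12, although C replicate 2 and US + D replicate 2 came close to the lowest of them. Solyc10g086180 had 198, 104 and 187 CPM in US, 215, 378 and 238 CPM in D and 65.9, 503 and 139.5 CPM in US + D, against 92.2, 348 and 69.3 CPM in C. Replicate 2 was the highest library of D, US + D and C but the lowest of US. Solyc03g042560 had 16.3, 6.18 and 61.4 CPM in US, 9.78, 3.79 and 25.6 CPM in D and 68.8, 1.64 and 15.4 CPM in US + D, against 3.64, 19.2 and 57.7 CPM in C. High and low libraries occurred in every group, and the highest library of US + D was 42.0 times the lowest.

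**Figure D2:**
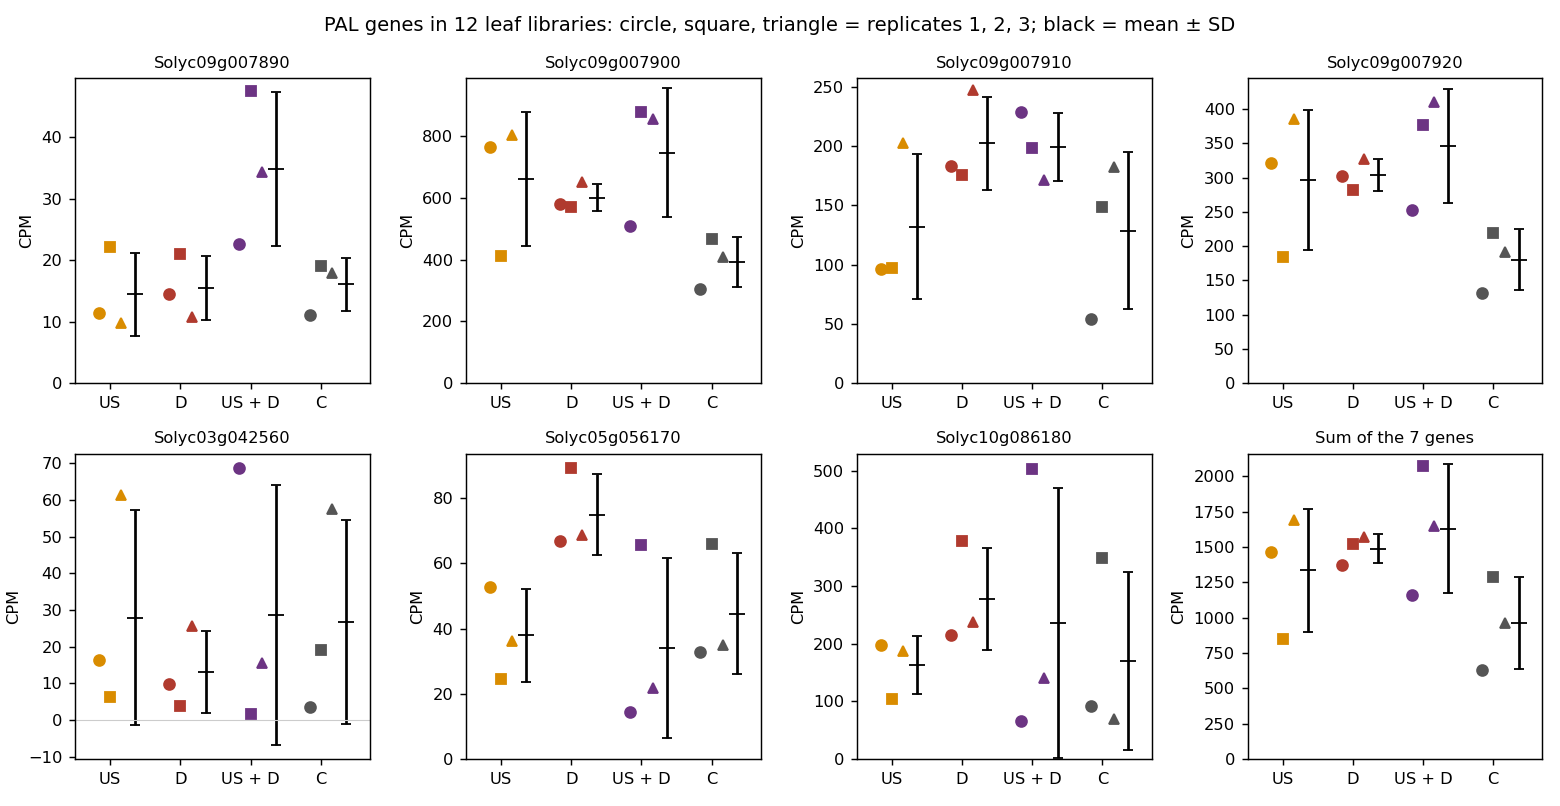
CPM (vertical axis, linear) of each PAL gene and of their sum in US, D, US + D and C (horizontal axis), with 1 point per library and the mean ± SD of 3 libraries in black. D and US + D libraries of Solyc09g007900 and Solyc09g007920 lie above those of C, the 3 highest libraries of Solyc09g007890 are US + D, and those of Solyc03g042560 scatter from 1.64 to 68.8 CPM without separating the groups.

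The spread within groups set how large a difference could be told from replicate error. The SD of log2 CPM within groups was 0.39 for Solyc09g007900 and 0.39 for Solyc09g007920, close to the median of 0.38 over the tested genes. It was 0.52 for Solyc09g007890, 0.58 for Solyc09g007910, 0.70 for Solyc05g056170 and 1.02 for Solyc10g086180. At 1.99, the SD of Solyc03g042560 was larger than that of 98.9% of the tested genes.

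Ultrasound alone was compared to C to see whether the sound by itself moved PAL transcripts. The most abundant genes were on average higher in US, but neither difference passed the test. edgeR gave a log2 fold change of 0.75 ± 0.30 (SE) for Solyc09g007900 with an unadjusted p of 0.0317, and of 0.72 ± 0.30 for Solyc09g007920 with an unadjusted p of 0.0345. Adjusted over all the tested genes both became 0.9998. The remaining 5 genes had fold changes between -0.24 and 0.06, each smaller than its SE. Of these, Solyc03g042560, Solyc09g007910 and Solyc10g086180 were at 0.84, 0.75 and 0.53 with voom, and at 2.94, 1.28 and 0.82 in edgeR without the 3 deepest libraries, again with no call. edgeR called 0 of 7 PAL genes and 0.0% of all tested genes, 2 of 7 had an unadjusted p under 0.05 (3.84% of all tested genes), and neither DESeq2 (0.387% of all tested genes called) nor limma voom with quality weights (0.00451%) called any of the 7. The median log2 fold change was 0.04 over the PAL genes and -0.02 over all tested genes, but 0.75 and 0.00 with voom, and -0.36 over the PAL genes without C replicate 1.

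Drought alone was compared to C next. The comparisons against C share its 3 libraries. Here 5 of 7 PAL genes had a positive log2 fold change, and Solyc09g007900, Solyc09g007920 and Solyc05g056170 had D libraries all above those of C, where 9.16% of all tested genes did. None passed the test. The log2 fold change was 0.75 ± 0.30 for Solyc09g007920 (unadjusted p = 0.0285, adjusted p = 0.403 in edgeR), 0.61 ± 0.30 for Solyc09g007900 and 0.75 ± 0.51 for Solyc05g056170. Solyc10g086180 with 0.71 ± 0.74 and Solyc09g007910 with 0.65 ± 0.42 were less certain. Solyc09g007890 differed by -0.06 ± 0.38 and Solyc03g042560 by -1.04 ± 1.29, both within their SE. edgeR called 0 of 7 genes, against 0.00451% of all tested genes. The count at an unadjusted p under 0.05 was 1 of 7 (11.1% of all tested genes), and DESeq2 (1.79% of all tested genes called) and voom (1.01%) called 0 of 7. The median log2 fold change of the PAL genes was 0.65, against -0.05 over all tested genes. It was 1.0 with voom and 0.41 without C replicate 1.

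The combined treatment was compared to C to see the joint effect of both stimuli. In US + D, 3 genes of the chromosome 9 group, i.e., Solyc09g007890, Solyc09g007900 and Solyc09g007920, were higher than C in each library, where 3.56% of all tested genes were. Their log2 fold changes were 1.11 ± 0.39, 0.93 ± 0.30 and 0.94 ± 0.30, with unadjusted p-values of 0.0154, 0.0115 and 0.00933. The adjusted p-values in edgeR were 0.798, 0.743 and 0.706, so none passed. Solyc09g007910 differed by 0.63 ± 0.42, Solyc10g086180 by 0.48 ± 0.74, Solyc03g042560 by 0.09 ± 1.27 and Solyc05g056170 by -0.40 ± 0.51. edgeR called 0 of 7 genes and 0.00451% of all tested genes, 3 of 7 had an unadjusted p under 0.05 (4.88% of all tested genes), and DESeq2 on the 12 libraries (0.609% of all tested genes called) and voom (0.158%) called 0 of 7. The median log2 fold change was 0.63 for the PAL genes and -0.03 over all tested genes, with 1.23 for the PAL genes in voom and 0.27 without C replicate 1. In DESeq2, leaving out US replicate 2 brought Solyc09g007900 (adjusted p = 0.0474) and Solyc09g007920 (adjusted p = 0.0443) past the threshold, where it called 0.642% of all tested genes. Leaving out US + D replicate 1 did so for Solyc09g007900 with a log2 fold change of 1.15 (adjusted p = 0.0374), where 0.713% of all tested genes were called.

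**Figure D3:**
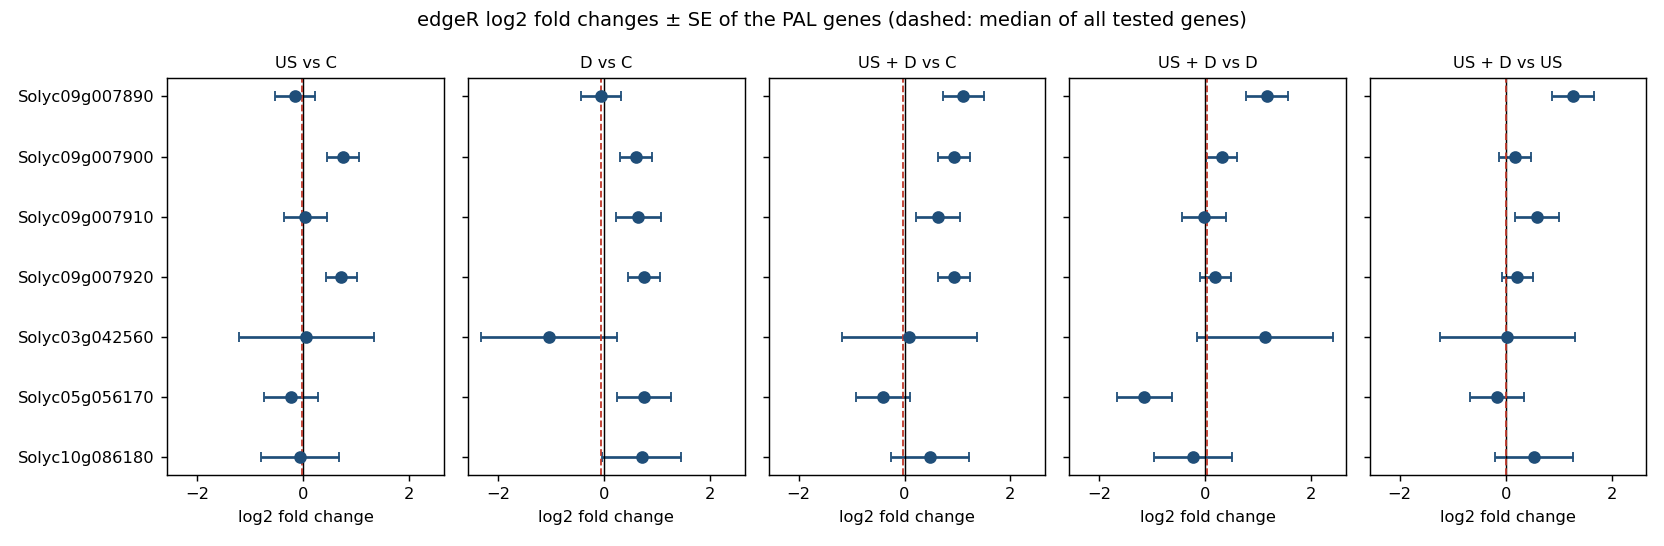
edgeR log2 fold changes (horizontal axis) of the 7 PAL genes (rows) in 5 comparisons, with bars of 1 SE, a solid line at 0 and a dashed line at the median of all tested genes. In US + D vs C the 4 genes on chromosome 9 lie between 0.63 and 1.11, while Solyc03g042560 has an SE of 1.27.

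Adding ultrasound to drought set US + D against D. The PAL genes differed in both directions, Solyc09g007890 being higher and Solyc05g056170 lower in US + D. Solyc09g007890 was higher in each US + D library than in any D library (11.2% of all tested genes were), with a log2 fold change of 1.17 ± 0.39 (unadjusted p = 0.0120, adjusted p = 0.255 in edgeR). Solyc05g056170 was lower in each US + D library (11.7% of all tested genes were), by -1.15 ± 0.52 (unadjusted p = 0.0492, adjusted p = 0.394 in edgeR). US + D replicate 2, at 65.6 CPM, lay just under the lowest D library at 66.7 CPM. Of the abundant genes, Solyc09g007900 differed by about its SE (0.31 ± 0.30) and Solyc09g007920 by less than its SE (0.19 ± 0.29). edgeR called 0 of 7 PAL genes, against 0.122% of all tested genes, and 2 of 7 had an unadjusted p under 0.05 (12.6% of all tested genes). voom with quality weights called both genes, with -1.70 (adjusted p = 0.00677) for Solyc05g056170 and 1.24 (adjusted p = 0.0184) for Solyc09g007890, where it called 8.95% of all tested genes. DESeq2 called 0 of 7 (3.33% of all tested genes), with a smallest adjusted p of 0.0898 for Solyc09g007890. This became 0.0432 without US replicate 2 (3.29% of all tested genes called) and 0.0399 without US + D replicate 1 (3.7%). Without US + D replicate 2, DESeq2 gave -2.05 for Solyc05g056170 (adjusted p = 0.000293, 1.78% of all tested genes called).

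Adding drought to ultrasound set US + D against US. Solyc09g007890 was again higher in every US + D library (2.51% of all tested genes were), by 1.27 ± 0.39 with an unadjusted p of 0.00783 and an adjusted p of 0.9998 in edgeR. US replicate 2, at 22.1 CPM, lay just under US + D replicate 1 at 22.6 CPM. The other 6 genes had log2 fold changes between -0.16 and 0.59. edgeR called 0 of 7 genes and 0.0% of all tested genes, 1 of 7 had an unadjusted p under 0.05 (3.37% of all tested genes), and DESeq2 (0.0434% of all tested genes called) and voom (0.0%) on the 12 libraries called 0 of 7. DESeq2 without US replicate 2 gave 1.74 for Solyc09g007890 with an adjusted p of 0.04996, where it called 0.0587% of all tested genes.

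D was also set against US. The D libraries of Solyc05g056170 and Solyc10g086180 were all above those of US, where 11.4% of all tested genes were, with log2 fold changes of 0.98 ± 0.51 (adjusted p = 0.456 in edgeR) and 0.77 ± 0.74 (adjusted p = 0.723). edgeR called 0 of 7 genes and 0.0% of all tested genes, 0 of 7 had an unadjusted p under 0.05 (13.0% of all tested genes), and DESeq2 (3.1% of all tested genes called) and voom (0.614%) called 0 of 7. The interaction, i.e., the difference between US + D and D minus that between US and C, was 1.33 ± 0.55 for Solyc09g007890 (unadjusted p = 0.0333, adjusted p = 0.734 in edgeR). For Solyc09g007900 and Solyc09g007920 it was -0.43 ± 0.43 and -0.53 ± 0.42. edgeR, DESeq2 and voom called 0 of 7 interactions, against 0.0%, 0.477% and 0.00451% of all tested genes, and 1 of 7 had an unadjusted p under 0.05 (6.42% of all tested genes).

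Sequencing depth differed between the groups, 2 of the 3 deepest libraries being C. The 3 deepest libraries had between 963 and 1648 CPM of summed PAL transcripts, and the other 9 between 631 and 2072 CPM. With the 3 deepest libraries left out, which leaves C with replicate 1 only, the log2 fold change of Solyc09g007900 was 1.12 for US vs C, 0.98 for D vs C and 1.18 for US + D vs C, and 0 of 7 genes were called by edgeR. That lone C library was the lowest of its group for both Solyc09g007900 and Solyc09g007920, and it is assumed to vary like the libraries of the other groups.

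Across the 12 libraries, Solyc09g007900 and Solyc09g007920 varied together. Their log2 CPM had a Pearson r of 0.980 and a Spearman rho of 0.965 (permutation p = 1e-05 for each, the smallest that 100000 permutations can give, and 0.00021 adjusted over 21 gene pairs). For all pairs the permutations shuffled the 12 libraries without regard to group, so differences between groups enter the p-values. Without the 2 libraries farthest from the median r was 0.975, and that of the deviations from the group means was 0.977. The ratio of their counts stayed between 1.93 in D replicate 1 and 2.39 in US replicate 1, with a median of 2.11. These genes lie on opposite strands with Solyc09g007910 between them, and Solyc09g007910 followed Solyc09g007900 less closely, at an r of 0.545 and a count ratio between 2.23 and 7.94. The part of reads shared between similar copies was not tested.

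The unlinked genes Solyc10g086180 and Solyc05g056170 also varied together, with r = 0.833 (permutation p = 0.0008, adjusted p = 0.0084) and rho = 0.839 (permutation p = 0.00107, adjusted p = 0.0112). This r was 0.746 without the 2 farthest libraries and 0.942 for deviations from the group means. Unlike the first pair they did not keep a constant ratio, as Solyc10g086180 had between 1.98 (C replicate 3) and 7.68 (US + D replicate 2) times the counts of Solyc05g056170. Of the 21 gene pairs, 17 had a positive r, and these 2 were the only ones with an adjusted permutation p under 0.05. Solyc03g042560 was not among them, its r with the other genes lying between -0.50 and 0.43.

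**Figure D4:**
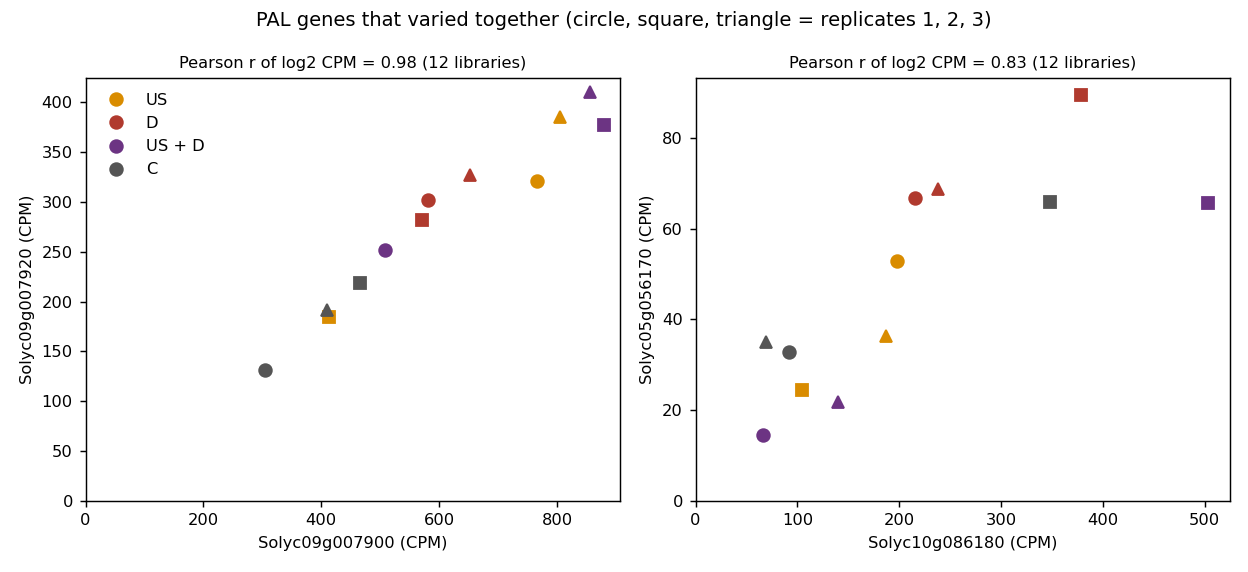
CPM of Solyc09g007920 against Solyc09g007900 (left) and of Solyc05g056170 against Solyc10g086180 (right), 1 point per library, with colour for the group and shape for the replicate number. The left points follow a line through the origin at a count ratio between 1.93 and 2.39, while the right points spread over ratios between 1.98 and 7.68.

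Leaf marker transcripts moved with some of these genes. The summed CPM of the 5 mesophyll genes had an r of 0.865 with Solyc10g086180, 0.589 with Solyc09g007900, 0.58 with Solyc05g056170, 0.537 with Solyc09g007920 and -0.508 with Solyc03g042560, over 12 libraries, whose depth and scaling all genes share. It ranged from 14742 to 28476 CPM in US, from 16659 to 30464 CPM in D, from 11619 to 39118 CPM in US + D and from 12049 to 24869 CPM in C. US + D replicate 2, the highest library for Solyc10g086180, also had the highest mesophyll sum and, at 362 CPM, the highest sum of 2 cellulose synthase genes of lignifying vessels. The vessel sum was 222 to 246 CPM in US, 168 to 219.7 CPM in D and 219 to 362 CPM in US + D, against 167 to 215 CPM in C. US and US + D did not overlap with C, nor D with US, but the margins were small. The highest C library had 215 CPM and the lowest US + D library 219 CPM. The highest D library had 219.7 CPM and the lowest US library 222 CPM. How often sums of other genes separate in this way was not tested. For the sums of mesophyll, trichome, apex and flower genes the groups overlapped. The part of cell composition in the PAL values was not tested.

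The genes whose log2 CPM was most like that of Solyc09g007900 outside the family were Solyc09g089540 (r = 0.918) and Solyc11g073170 (r = 0.914), followed by Solyc02g084640 (0.888), Solyc09g083435 (0.875) and Solyc02g081360 (0.858), over 12 libraries. They were picked as the highest r among all tested genes, so these values carry no p. Solyc11g073170 had only 0.123 to 0.961 CPM, and Solyc09g089540 0.00, 0.21 and 0.04 CPM in C. At such levels the prior count weighs on log2 CPM. The study annotates Solyc09g089540 and Solyc09g083435 as proteinase inhibitors, i.e., proteins known from wounded tomato leaves. Solyc09g083435 had 101, 74.3 and 222 CPM in US, 82.1, 249.5 and 289 CPM in D and 45.1, 1126 and 795 CPM in US + D, against 14.1, 73.6 and 34.0 CPM in C. Its US + D replicates 2 and 3 stood far above the rest, and they were also the 2 highest libraries of Solyc09g007900. Genes most like Solyc03g042560, looked up after its scatter had been seen, included Solyc03g082370 (r = 0.970) and Solyc00g500353 (r = 0.966).

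Around PAL, a list of 45 loci was read, from the supply of phenylalanine through the core of the pathway to monolignols, chlorogenic acid and flavonoids. It had 44 loci in the table, of which 43 were tested. The list and its parts were drawn up from general knowledge of the pathway. For most loci the placement in a part was not checked against an annotation. Only loci that the study annotates are given an enzyme name here. A part named beside any other locus is only its place in this list. edgeR called 0 of 43 in each of the 7 comparisons. The counts at an unadjusted p under 0.05 are given with the share of all tested genes, in either direction, in parentheses. They were 3 higher and 0 lower in US vs C (3.84%), 8 higher and 2 lower in D vs C (11.1%), and 5 higher and 1 lower in US + D vs C (4.88%). They were 5 higher and 8 lower in US + D vs D (12.6%), 4 higher and 5 lower in D vs US (13.0%), 0 higher and 1 lower in US + D vs US (3.37%), and 1 higher and 8 lower for the interaction (6.42%). DESeq2 called 1 higher in US vs C (0.387% of all tested genes), 1 higher in D vs C (1.79%), 1 higher and 3 lower in D vs US (3.1%), 3 higher and 5 lower in US + D vs D (3.33%) and 1 lower for the interaction (0.477%). It called 0 in US + D vs C (0.609%) and US + D vs US (0.0434%). The 3 higher in US + D vs D, i.e., Solyc09g082660, Solyc02g085020 and Solyc03g097170, were the same 3 that were lower in D vs US, and both comparisons share the D libraries. The 5 lower in US + D vs D were Solyc06g068440, Solyc01g107590, Solyc01g107910, Solyc02g069250 and Solyc10g050160, of which Solyc06g068440 was the gene higher in D vs C and in D vs US, and Solyc02g069250 the gene lower in the interaction.

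Per kilobase of gene interval, introns included, the highest locus of each of 10 steps around PAL lay within the range of the PAL family. Loci with long introns come out lower on this scale, and Solyc06g150137, the lowest of the 10, averaged 104 CPM before division by length. Of the loci with the highest mean level of their step, Solyc02g093270 (69.7 CPM per kilobase), Solyc03g117870 (61.2) and Solyc05g053550 (51.6) lay between the second and the fifth PAL gene, and below Solyc09g007900 at 187. Solyc01g107590 had 38.8, Solyc06g074530 of phenylalanine supply 32.6, Solyc07g005760 25.8, Solyc03g117600 17.3, Solyc06g068440 17.1, Solyc01g096670 11.7 and Solyc06g150137 10.6 CPM per kilobase. Across the 12 libraries, the log2 CPM of these 10 loci had an r between -0.35 (Solyc01g107590) and 0.64 (Solyc03g117870) with Solyc09g007900, well under the r of 0.98 between Solyc09g007900 and Solyc09g007920. The flavonoid locus Solyc05g053550 varied most in CPM, from 6.76 to 227 CPM, and Solyc03g117870 of the core part ranged from 135 to 341 CPM.

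The 16 genes listed for chlorogenic acid and monolignols had a median log2 fold change of 0.50 in D vs C, against -0.05 over all tested genes, and of -0.32 in US + D vs D, against 0.03. With voom these medians were 0.56 and -0.54. The core part moved alike, with medians of 0.32 and -0.35 in edgeR and 0.67 and -0.39 with voom. In edgeR the phenylalanine supply part had 0.02 and 0.08, and the flavonoid part -0.29 and 0.44. Solyc06g068440, a cinnamoyl-CoA reductase that leads from the common pathway into monolignols, had 72.7, 87.1 and 58.5 CPM in D, against 33.0, 43.1 and 26.7 CPM in C. Its US + D libraries had 30.9, 36.8 and 30.2 CPM, and D thus stood above both groups without overlap. Of all tested genes, 9.16% were higher without overlap in D vs C, and 11.7% were lower without overlap in US + D vs D. DESeq2 gave 1.09 in D vs C (adjusted p = 0.00759) and -1.15 in US + D vs D (adjusted p = 0.00216), while edgeR gave adjusted p-values of 0.236 and 0.0933.

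Further genes were named for their DESeq2 calls in US + D vs D or US vs C. Solyc09g082660, annotated as a caffeoyl-CoA O-methyltransferase, had 23.0, 47.4 and 60.4 CPM in US + D, against 9.75, 5.59 and 14.0 CPM in D. Which branch of the pathway it serves was not tested. All US + D libraries were above those of D (11.2% of all tested genes were), and its C libraries, at 4.87, 36.3 and 51.8 CPM, overlapped with both. Solyc02g085020, a dihydroflavonol 4-reductase of anthocyanin synthesis, had 16.3, 37.5 and 53.0 CPM in US + D, against 6.37, 4.89 and 8.63 CPM in D. Its C libraries, at 1.998, 24.4 and 41.2 CPM, likewise overlapped with both groups. For these genes the log2 fold changes in US + D vs D were 2.16 ± 0.69 and 2.42 ± 0.81, with adjusted p-values of 0.0345 and 0.0371 in DESeq2 but 0.248 and 0.2598 in edgeR. Listed for the same step as Solyc09g082660, Solyc01g107910 and Solyc10g050160 went the other way in US + D vs D. Whether these loci act in the same step was not checked. DESeq2 gave them -1.5 (adjusted p = 0.00168) and -0.6 (adjusted p = 0.0282), and edgeR adjusted p-values of 0.103 and 0.173. DESeq2 called no further locus of that step in this comparison. In US, the cytochrome P450 gene Solyc02g084570 had 75.2, 56.5 and 113 CPM, against 42.8, 35.3 and 26.9 CPM in C. It had 45.2, 44.5 and 50.5 CPM in D and 74.2, 71.1 and 57.2 CPM in US + D. These were likewise above every C library, where 9.16% (D) and 3.56% (US + D) of all tested genes were. For US vs C, DESeq2 called it (1.21, adjusted p = 0.00768), and edgeR did not (1.22 ± 0.25, adjusted p = 0.482).

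**Figure D5:**
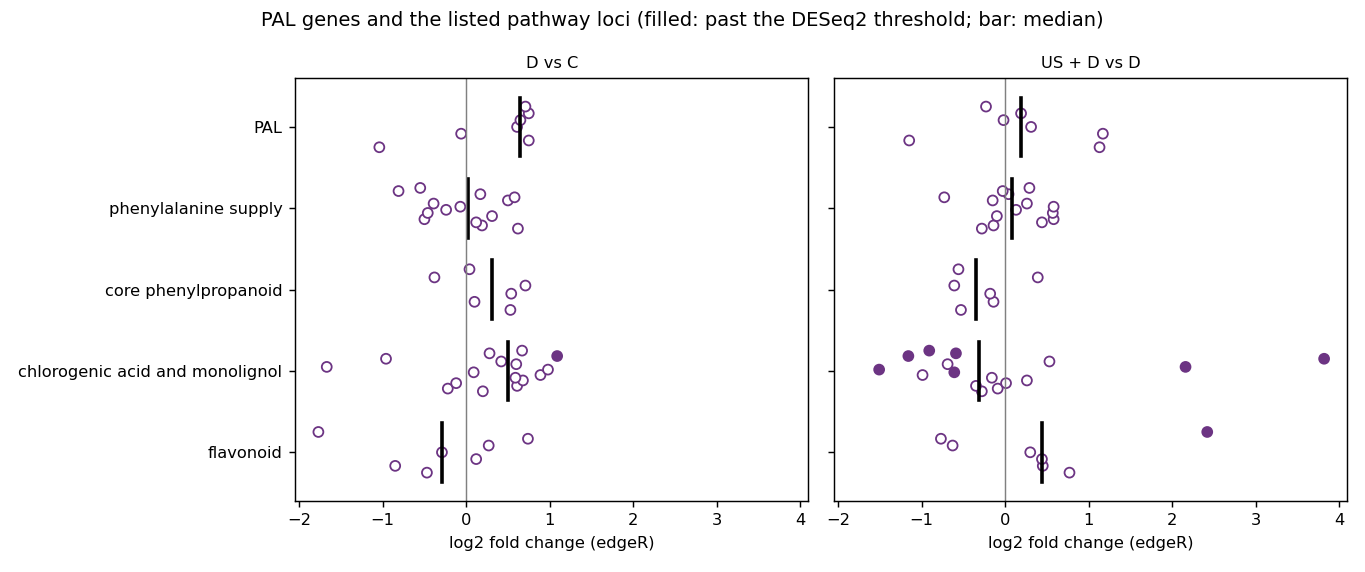
edgeR log2 fold changes (horizontal axis) in D vs C and US + D vs D for the PAL genes and the 4 parts of the pathway list (rows), 1 circle per gene, filled where DESeq2 called the gene, with a bar at the median. The PAL median is 0.65 in D vs C and 0.19 in US + D vs D. That of the chlorogenic acid and monolignol genes is 0.50 and -0.32, and that of the core genes 0.32 and -0.35.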

How the data were processed

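The authors deposited 1 table of whole-number read counts per gene, without normalization. They trimmed paired-end reads of poly-A RNA with fastp, aligned them to SL4.0 with Hisat2 and counted them on ITAG4.0 genes with FeatureCounts. The length column equals end minus start plus 1 in 100% of rows, so values per kilobase include introns.

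Counts were analysed as deposited in R (4.3.3) with edgeR (4.0.16): filterByExpr, TMM scaling and quasi-likelihood tests, all 12 libraries and 4 group means in the same fit. A gene was called at an adjusted p (Benjamini-Hochberg over all tested genes) under 0.05 and a log2 fold change beyond 0.58. The SE of a fold change is approximate. Log2 CPM used a prior count of 2. DESeq2 (1.42.0) and limma (3.58.1) voom were alternatives. Tools were tested on simulated data. Correlations used 100000 permutations in Python (3.11.15) with numpy (2.4.6), pandas (2.3.3) and scipy (1.17.1). With 3 libraries per group, 0.1 is the smallest two-sided p of an exact permutation test.

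Named were the 9 PAL loci, pathway genes called by edgeR (none), the locus of highest CPM per kilobase for each of 10 pathway steps, and the 5 genes most like Solyc09g007900. Other pathway genes were named after seeing the DESeq2 calls. The members and lists were chosen with earlier results of these data known. No sequence was printed, and no annotation table used here matched the locus names. Of the pathway and marker lists, 3 loci were not analysed here.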

Additional observations from a re-analysis of the deposited data

How the results depend on the processing

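With edgeR no PAL gene was called in any comparison with RLE scaling, without a filter on low counts or with a stricter one (10 counts in 6 libraries), by the adjusted p alone, on only the groups compared, or with libraries left out, and DESeq2 on the 12 libraries called none either. Past the threshold were 2 genes in US + D vs D with voom. Leaving out each library in turn gave from 0 to 2 PAL genes in US + D vs C, from 0 to 1 in US + D vs D and from 0 to 1 in US + D vs US, all the calls being those of DESeq2 given above. Of the 43 pathway genes, DESeq2 called 1 in US vs C (0.387% of all tested genes), 1 in D vs C (1.79%), 8 in US + D vs D (3.33%) and 4 in D vs US (3.1%), voom called 2 in D vs C (1.01%) and 8 in US + D vs D (8.95%), and edgeR on only the groups compared called 2 in D vs US. With libraries left out these counts ranged from 0 to 2 in US vs C, 0 to 3 in D vs C, 0 to 2 in US + D vs C, 0 to 5 in D vs US, 0 to 9 in US + D vs D and 0 to 1 in US + D vs US. The share of all tested genes called moved too. For DESeq2 in US + D vs D it was 1.78% without US + D replicate 2 and 3.7% without US + D replicate 1. It is not given for every such fit, nor for edgeR on only the groups compared, so these pathway counts cannot be set against it. Over all genes, edgeR, DESeq2 and voom called 27, 739 and 1983 in US + D vs D, and 1, 426 and 224 in D vs C. The causes of these differences were not tested. Between all settings the median log2 fold change of the PAL genes lay between -0.36 and 1.12 in US vs C, 0.41 and 1.21 in D vs C, and 0.27 and 1.62 in US + D vs C, lowest without C replicate 1 and highest without the 3 deepest libraries. Of 49 log2 fold changes of PAL genes, 22 were larger than their SE and kept their sign in every alternative, and of the other 27, 25 changed sign in at least 1. With the replicate number as a block 0 PAL genes were called in each comparison. Whether the numbers pair the libraries was left undecided. Same-numbered libraries of different groups had deviations correlated between -0.401 and 0.754 over 18 pairs. Those of other numbers lay between -0.638 and 0.552 over 36 pairs. Of the 12 libraries, 7 correlated best with one of their own number.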
